A study of Mus musculus with 21 samples.

Results

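The 35 genes described here encode the machinery of endoplasmic reticulum (ER) stress and of the integrated stress response, measured by RNA-seq in mouse bone marrow-derived macrophages. They were taken from a fixed list by gene symbol, and each was found once among the 50645 genes of the fatty acid table and once among the 50644 genes of the Western diet table. By role, 14 are ER chaperones and folding enzymes, 7 are stress sensors and transcription factors, 4 serve ER-associated degradation, 4 are effectors of the stress response, and 6 make or carry amino acids and one-carbon units.

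Proteins bound for membranes or secretion fold inside the ER, and activated macrophages secrete heavily. When unfolded proteins build up, the sensors IRE1 (gene Ern1), ATF6 and PERK (gene Eif2ak3) signal to the nucleus: IRE1 splices the Xbp1 message, ATF6 is cut to release a transcription factor, and PERK phosphorylates the translation factor eIF2. The first branches raise chaperone and degradation genes, while eIF2 phosphorylation slows general translation and favours ATF4, which drives Ddit3 (CHOP), Trib3, Asns and genes of serine synthesis. Other kinases also phosphorylate eIF2, which makes the ATF4 arm the shared, integrated part of the response. Gene-level values do not show Xbp1 splicing, ATF6 cleavage or protein levels.

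All libraries came from C57Bl6/J macrophages grown with L929 cell supernatant. The labels give 24 weeks both as the donors' age and as the time on diet. In the fatty acid table all donors ate standard chow (ND), and the groups were untreated cells (ND control), cells given 100 ng/ml E. coli lipopolysaccharide (LPS) for 24 h from day 7, cells held for the first 4 days with fatty acid (10 mM, as 1 part palmitic to 3 parts oleic acid) before the same LPS, and cells given that fatty acid with 200 nM TAK242 before LPS. TAK242 is a small-molecule inhibitor of the LPS receptor TLR4, and the protocol washes the cells after the 4 days, so LPS was added later to washed cells. No group received fatty acid without LPS, or TAK242 without fatty acid. In the Western diet table the groups were untreated chow cells (replicates 4 to 6) and cells labelled Western diet (WD, rich in fat, sugar and cholesterol) without and with LPS. Each of the 7 groups had 3 libraries, 21 in all. The labels do not say whether a replicate was an animal or a culture, so p-values measure only the spread between these libraries, which may be technical.

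Levels are the deposited values, whose unit the sources used here do not name and which behave like FPKM, that is, per length and per library. Their sum per library ran from 321532 to 386023, between 8803 and 10145 genes reached a value of 1, and the read depth is unknown. All 7 macrophage markers were above 1 in every library, with a summed level of 5793 to 15382 in the Western diet table and 8726 to 10781 in the fatty acid table. The LPS-induced chemokine gene Ccl5 matched the labels throughout the fatty acid table (0.419 to 0.645 in untreated libraries, 3102 to 7141 in the other 9). In the Western diet table it went against 4 labels: the libraries labelled Western diet without LPS read 7846, 13.7 and 10973 in replicates 1, 2 and 3, and those labelled Western diet with LPS read 0.463, 10.5 and 6905. That table is therefore described library by library.

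Many genes of the ER stress response share short promoter motifs, and the promoters are described first. A link between these motifs and the changes below was not tested. RefSeq promoters (250 bases before to 50 after the start, build GRCm38.p6) were found for 32 of the 35 genes, and Atf6, Manf and Hyou1 had no entry in the table. The ER stress element, read by ATF6 with the factor NF-Y, was searched as CCAAT, 9 bases of any kind, then CCACG, on both strands. It was present in 8 of the 32 (25.0%), against 37 of 27025 genes with a promoter in the table (0.137%) and 39 of 32851 promoters (0.119%). The 8 were Hspa5, Hsp90b1, Calr, Canx, Pdia6, Dnajc3, Creld2 and the ubiquitin ligase gene Syvn1, so that 7 of 12 chaperone genes with a promoter held it. Stretches around the element follow, 5′ to 3′ on the gene's strand, with both ends of the element in capitals; where it lies on the opposite strand it reads CGTGG, 9 bases, ATTGG.
Hspa5 (chr2:34772020-34772048, plus strand): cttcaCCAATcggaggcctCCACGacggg
Calr (chr8:84847063-84847105, minus strand): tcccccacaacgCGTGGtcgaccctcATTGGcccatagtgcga
Canx (chr11:50325788-50325830, minus strand): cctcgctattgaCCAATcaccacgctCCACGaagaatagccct
Pdia6 (chr12:17266479-17266521, plus strand): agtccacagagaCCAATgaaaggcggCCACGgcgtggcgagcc
Dnajc3 (chr14:118937815-118937857, plus strand): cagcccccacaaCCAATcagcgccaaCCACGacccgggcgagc
Creld2 (chr15:88819508-88819550, plus strand): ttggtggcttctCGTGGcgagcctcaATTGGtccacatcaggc
Syvn1 (chr19:6046520-6046562, plus strand): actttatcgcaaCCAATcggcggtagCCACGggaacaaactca
Hsp90b1, with an element in each orientation (chr10:86705524-86705664, minus strand): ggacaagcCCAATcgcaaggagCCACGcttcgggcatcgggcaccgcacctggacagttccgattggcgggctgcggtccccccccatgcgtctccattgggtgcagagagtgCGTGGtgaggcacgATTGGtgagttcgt

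The second form of the element (ATTGG, 1 base, CCACG) was found in Dnajb11 and Herpud1, 2 of 32 members (6.25%) against 12 genes in all (0.044%). The C/EBP-ATF element (TGATGNAA), at which ATF4 acts with a C/EBP partner, was found in Atf3, Trib3, Chac1, Asns and Herpud1, 5 of 32 (15.6%) against 4.51% of genes, and in none of the 12 chaperone promoters. Stretches with these motifs in capitals are given for 4 of these genes, and a match is a description of letters, not of a bound site.
Herpud1 (chr8:94386367-94386397, plus strand): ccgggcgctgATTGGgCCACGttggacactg
Atf3 (chr1:191183424-191183455, minus strand): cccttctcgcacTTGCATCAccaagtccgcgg
Chac1 (chr2:119351037-119351068, plus strand): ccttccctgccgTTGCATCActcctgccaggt
Asns (chr6:7693215-7693243, minus strand): tcccagccacaTGATGAAActtcccgcac

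The unfolded protein response element TGACGTGG was in none of the 32 (0.714% of genes), and its core ACGTG, a common sequence, was in 11 (34.4%, against 21.8% of genes), 1 of which (Herpud1) overlapped the second form of the ER stress element. In GENCODE M21 the annotated first exons of Hspa5 and Asns begin upstream of the RefSeq start, and the stretches printed for these genes lie inside them. The stretch printed for Atf3 lies within the annotated span of that gene (chromosome 1, 191170296 to 191218039, minus strand), at an internal start.

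Changes below are differences of log2(value + 1), a scale that shrinks the changes of weakly expressed genes. They were tested with limma over all genes that reached a value of 1 in 3 or more libraries of a table (10476 in the fatty acid table, 34 of the 35 members; Chac1 was too low). An adjusted p under 0.05 counts as a call. LPS gave 7 calls higher and 10 lower among the members, against 13.8% of all genes higher and 47.9% lower (61.7% in either direction). Fatty acid before LPS, against LPS alone, gave 2 higher and 17 lower, against 21.8% and 15.3% of all genes (37.2%). TAK242 with the fatty acid, against fatty acid without it, gave 9 higher and 1 lower, against 3.01% and 1.68% (4.69%). These comparisons share libraries with opposite sign: the LPS libraries enter both the LPS and the fatty acid contrast, and the fatty acid libraries both the fatty acid and the TAK242 contrast.

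Scaling between libraries changed the counts of the contrasts against untreated cells, and little in those among LPS-treated groups. Median-ratio scaling, with factors of 1.15 to 1.25 in untreated and 0.893 to 0.936 in LPS libraries, moved the median LPS change of all genes from -0.31 to 0.01. The members' calls became 18 higher and 4 lower, against 27.2% and 26.9% of all genes (54.1%), and their median moved from 0.06 to 0.42. On both scales 11 members kept the same LPS call: Dnajb9, Dnajb11, Creld2, Manf, Hyou1, Ddit3 and Slc3a2 higher, and Eif2ak3, Sel1l, Psat1 and Shmt2 lower. The share of all genes that kept a call on both scales was not counted. Of these members, the calls of Dnajb9 and Ddit3 did not hold under every left-out library. For the fatty acid contrast the scaled counts were 2 and 18 (19.9% of all genes each way), and for TAK242 they were 9 and 1 (4.36% and 2.99%, 7.35% in either direction).

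**Figure D1:**
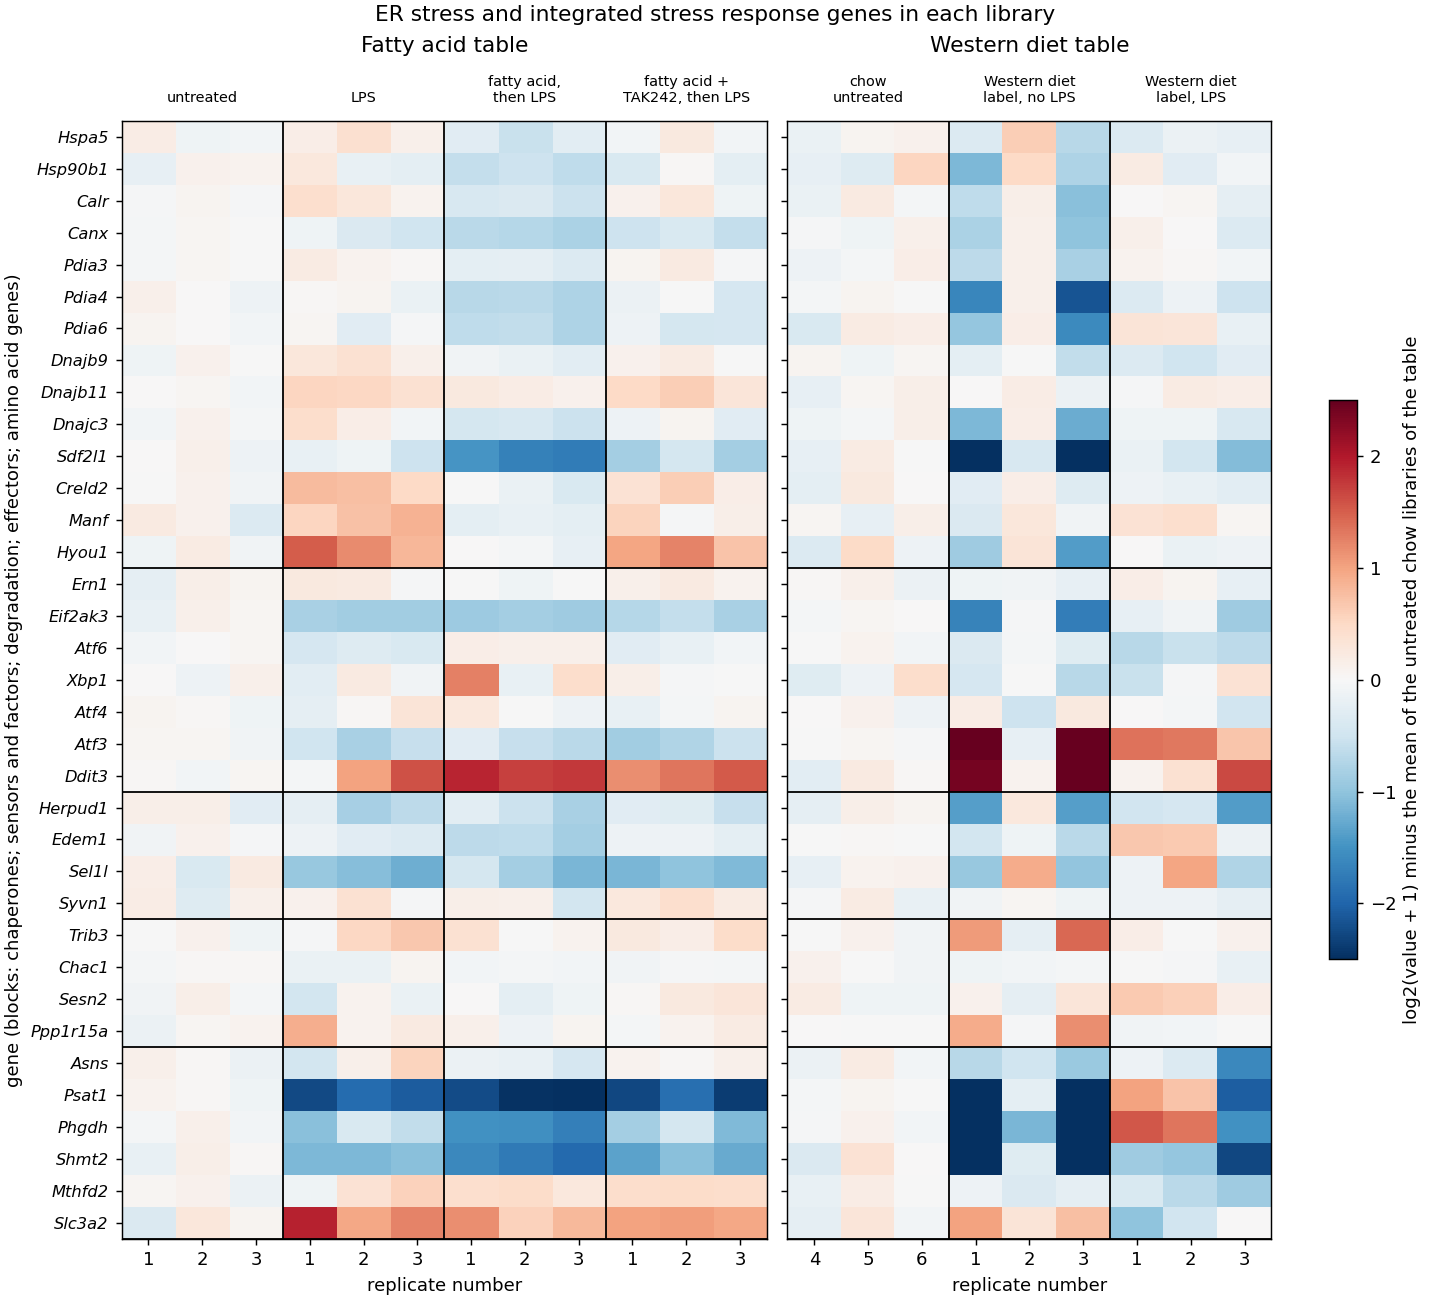
Heat map of the 35 genes (vertical axis, in blocks by role) in the 21 libraries (horizontal axis, by group and replicate number); colour gives log2(value + 1) minus the mean of the untreated chow libraries of the same table, red above and blue below, with colours saturating at the ends of the scale. The chaperone block is bluest in the fatty acid column of the left panel, and Western diet replicates 1 and 3 without LPS stand apart from replicate 2 in the right panel.

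The 14 ER chaperones and folding enzymes were lower, all 14, when fatty acid came before LPS, and for each of the 14 the 3 fatty acid libraries lay below all 3 LPS libraries. Across all genes tested, 15.3% were called lower, 37.2% were called in either direction, and 21.4% had fatty acid libraries below all LPS libraries. The chaperones' median change was -0.62, while that of all genes was 0.06. With scaling all 14 calls held, with a median of -0.69. Of the 14 calls, 12 also held when any 1 of the 6 libraries was left out; Hsp90b1 was lost without LPS replicate 1 or fatty acid replicate 3 (adjusted p up to 0.0564), and Dnajb11 without LPS replicate 1 or 2 or fatty acid replicate 2 or 3 (up to 0.0842).

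Sdf2l1, a small ER protein that works with the co-chaperone DNAJB11, showed the largest fall of the 34 genes tested in this contrast. Its value was 21.7, 23.7 and 19.7 in untreated replicates 1 to 3, 18.9, 20 and 14.9 with LPS, 7.12, 6.07 and 5.77 with fatty acid before LPS, and 11.6, 15.8 and 11.6 with TAK242 added. The fatty acid libraries were below the other 9 without overlap, and the TAK242 libraries lay between them and the untreated ones. The change with fatty acid was -1.36 (SE 0.14, adjusted p = 0.000283, limma), and against untreated cells it was -1.63 (SE 0.14, adjusted p = 2.57e-06), both kept with scaling (-1.43 and -1.33).

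Hyou1, the ER chaperone GRP170 that also exchanges nucleotide on BiP, had the largest chaperone response to LPS. It read 24, 30.3 and 24.5 in untreated cells, 76.8, 60.3 and 47.1 with LPS, 26.2, 25.4 and 22.6 with fatty acid before LPS, and 52.9, 62.7 and 43.7 with TAK242. All LPS and TAK242 libraries were above all untreated and fatty acid libraries. LPS raised it by 1.17 (SE 0.18, adjusted p = 0.000181), and with fatty acid it was lower by a change of -1.25 (SE 0.18, adjusted p = 0.00086). Fatty acid then LPS against untreated gave -0.08 (95% interval -0.47 to 0.31), so a difference beyond the spread was not detected there.

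Creld2 and Manf, both ER-resident proteins induced by ER stress, showed the same order of groups. Creld2 read 24.3, 26.6 and 22.9 untreated, 43.4, 42 and 35 with LPS, 24.3, 21.9 and 18.8 with fatty acid, and 32.1, 38.2 and 27.5 with TAK242. It rose by 0.68 with LPS (SE 0.14, adjusted p = 0.00122) and changed by -0.86 with fatty acid (SE 0.14, adjusted p = 0.00133). Manf read 43.9, 40.4 and 29.4 untreated, 55, 62.6 and 69 with LPS, 31.4, 32.8 and 31.3 with fatty acid, and 55.1, 36.4 and 41.6 with TAK242. It rose by 0.71 with LPS (SE 0.17, adjusted p = 0.00366) and changed by -0.94 with fatty acid (SE 0.17, adjusted p = 0.00241). In both genes the fatty acid and untreated libraries overlapped.

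Hspa5 encodes BiP, the central HSP70 chaperone of the ER, and its promoter carries the element shown above. Its values were 220, 179 and 184 untreated, 218, 257 and 211 with LPS, 159, 132 and 160 with fatty acid, and 184, 230 and 183 with TAK242. The fatty acid libraries were the lowest of the 12, and the other groups overlapped one another. The fatty acid change was -0.60 (SE 0.13, adjusted p = 0.00545); that with LPS was 0.23 (SE 0.13, adjusted p = 0.141) as deposited and 0.62 (adjusted p = 0.00283) with scaling. Against untreated cells the fatty acid libraries gave -0.37 (adjusted p = 0.0304) as deposited, but -0.05 (adjusted p = 0.784) with scaling, and the call was also lost without untreated replicate 1 or fatty acid replicate 2.

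The other 9 chaperones changed with fatty acid by values from -0.30 in Dnajb11 (SE 0.09, adjusted p = 0.026) to -0.69 in Calr and Pdia4 (adjusted p = 0.00164 and 0.00167). Calr and Canx, the lectin chaperones of glycoprotein folding, averaged 599 and 138 with LPS and 369 and 104 with fatty acid before LPS. Pdia3, Pdia4 and Pdia6, which form disulfide bonds, averaged 393, 64.1 and 186 with LPS and 302, 39.2 and 123 with fatty acid. Hsp90b1 (GRP94) and the co-chaperone genes Dnajb9, Dnajb11 and Dnajc3 went from means of 391, 4.12, 93.9 and 20.7 to 268, 2.77, 76.3 and 12.8. The 7 chaperones with the ER stress element and the 5 with a promoter but no such match were all lower. Among these 5, Dnajb11 holds the second form of the element. Syvn1, which holds the element and is no chaperone, had a change of -0.21 (SE 0.19, adjusted p = 0.4).

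**Figure D2:**
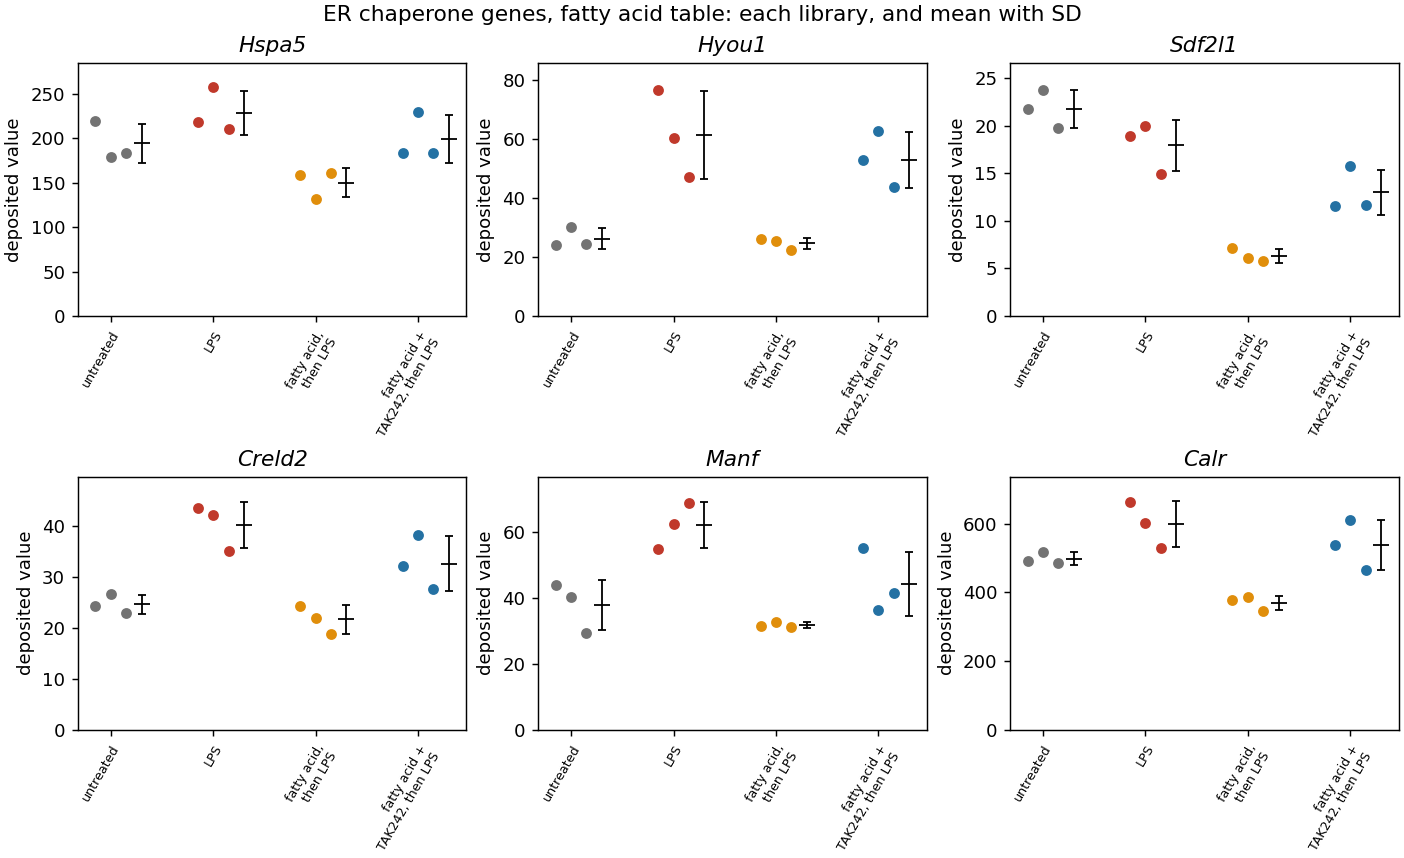
Deposited values (vertical axis, linear from 0) of 6 chaperone genes in the 12 libraries of the fatty acid table, with 1 dot a library and the group mean ± SD (n = 3) beside the dots. In each gene the fatty acid libraries lie below the LPS and TAK242 libraries; for Sdf2l1 they read 5.77 to 7.12 against 11.6 to 15.8 with TAK242.

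Among chaperones LPS alone gave 5 calls higher (Dnajb9, Dnajb11, Creld2, Manf, Hyou1) and 1 lower (Canx), and 10 higher with none lower after scaling. The shares of all genes were 13.8% higher and 47.9% lower, and 27.2% and 26.9% after scaling. Canx was -0.33 as deposited (adjusted p = 0.0157) and 0.059 with scaling (adjusted p = 0.651), so its direction depends on the scale. Dnajb9 was higher by 0.26 (adjusted p = 0.0386), a call lost when untreated replicate 1 or 3 or LPS replicate 1 or 2 was left out, and Canx was lost without untreated replicate 2 or LPS replicate 3. Against untreated cells, fatty acid then LPS gave 9 chaperones lower and none higher as deposited, and 4 lower (Canx, Pdia4, Pdia6, Sdf2l1) and 1 higher (Dnajb11) with scaling. Over all members that contrast gave 3 higher and 17 lower, against 15.2% and 44.9% of all genes (60.1%), and 7 and 10 with scaling, against 27.3% and 29.1% (56.4%).

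With TAK242 added to the fatty acid all 14 chaperones had higher group means, and 6 passed the test: Calr, Pdia3, Pdia4, Sdf2l1, Creld2 and Hyou1. Over all genes 4.69% were called, and the chaperones' median change was 0.39 against -0.00 for all genes. In all 14 the TAK242 libraries lay above the fatty acid libraries, as they did in 18.1% of all genes. Hyou1 was higher by 1.06 (SE 0.18, adjusted p = 0.013) and Sdf2l1 by 0.93 (SE 0.14, adjusted p = 0.00953). In every one of the 14 the group means ran LPS, TAK242, fatty acid from high to low, on both scales. The share of all genes with that order was not counted, and LPS and TAK242 are set against the same fatty acid libraries. As deposited, the TAK242 and LPS libraries overlapped in the genes shown above. With scaling this did not hold for all of them, for example not for Manf.

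No TAK242 call among the 35 genes held under every left-out library. The 9 calls higher became 5, 2 and 0 without fatty acid replicate 1, 2 and 3, and 1, 1 and 8 without TAK242 replicate 1, 2 and 3. The log2 changes themselves moved little, between 0.93 and 1.19 for Hyou1 and between 0.79 and 1.00 for Sdf2l1, whose adjusted p reached 0.068 and 0.0524.

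**Figure D3:**
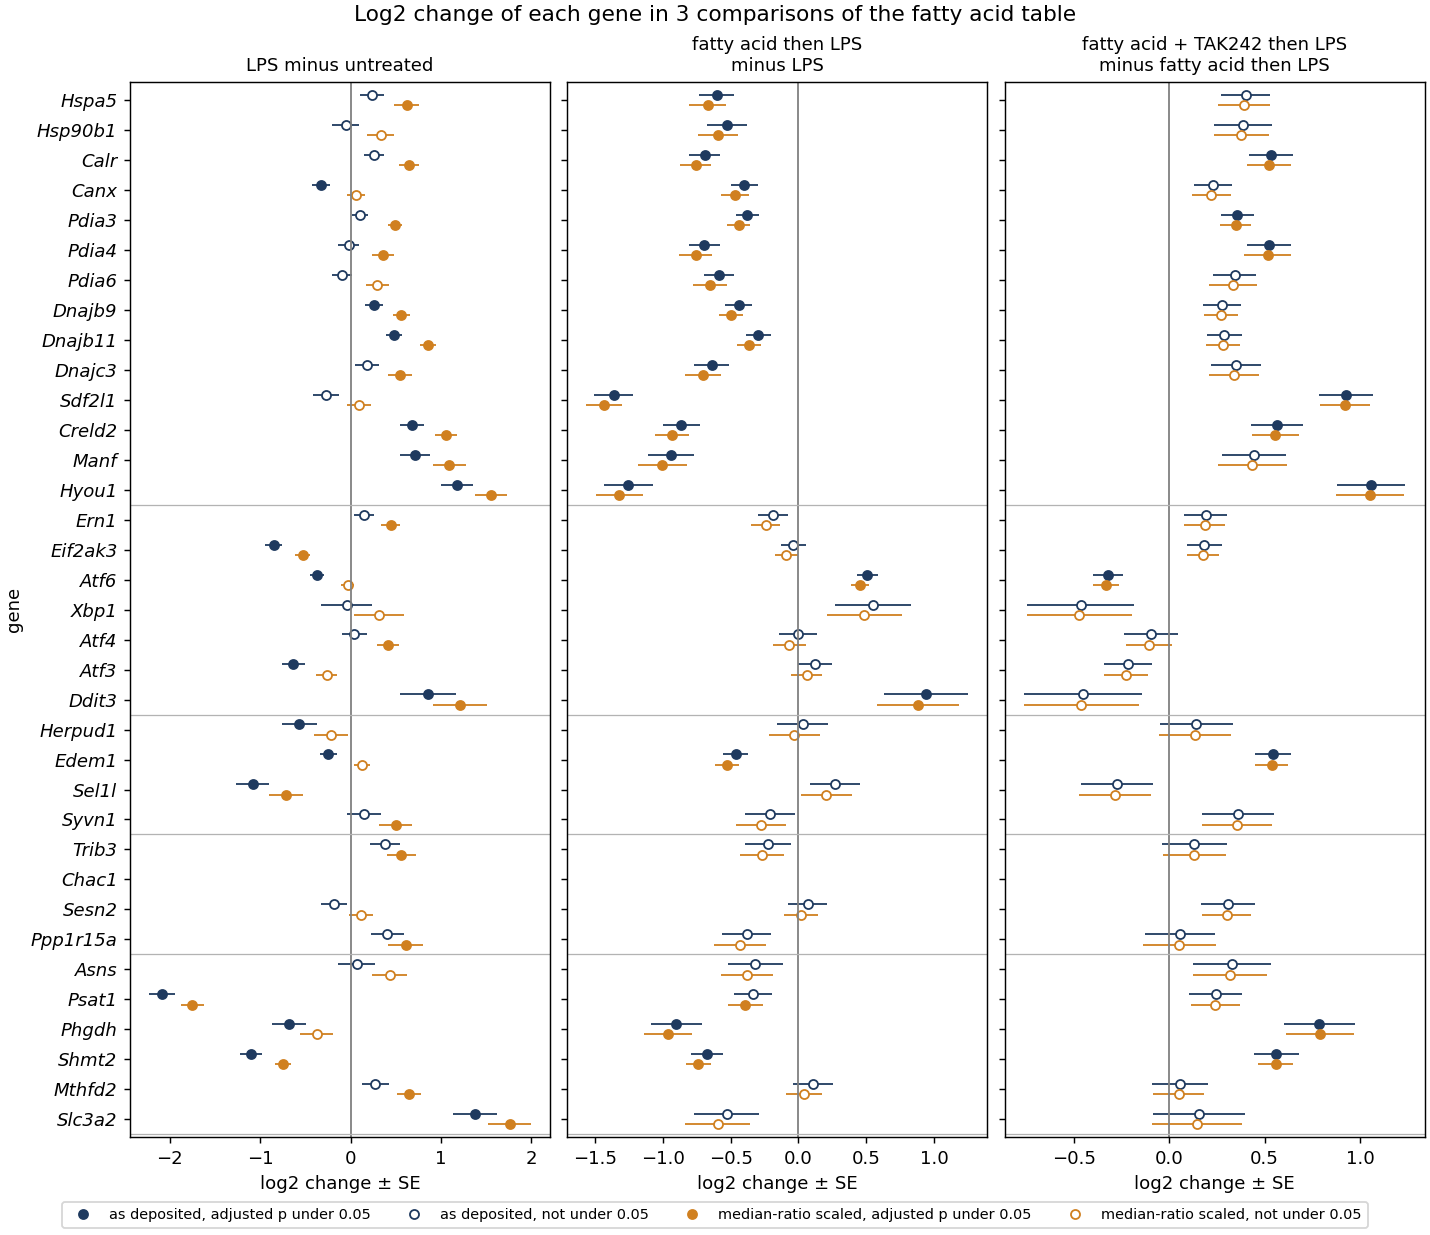
Log2 change ± SE (horizontal axis) of each gene (vertical axis, in blocks by role) in 3 comparisons of the fatty acid table, as deposited (dark blue) and after median-ratio scaling (orange); filled symbols have an adjusted p under 0.05. Chaperones sit left of 0 in the middle panel, from -0.30 to -1.36, and right of 0 in the right panel, while orange and blue symbols part most in the left panel; Chac1 was not tested.

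None of the 7 sensors and transcription factors was called lower with fatty acid before LPS, and 2 (Atf6 and Ddit3, 28.6%) were called higher, a share near the 21.8% of all genes. Ddit3 encodes CHOP, the factor tied to prolonged stress. It read 10.4, 9.64 and 10.6 untreated, 9.81, 21.6 and 32.9 with LPS, 41, 35.7 and 37.1 with fatty acid, and 24, 27.2 and 31.6 with TAK242. The LPS libraries were spread from the untreated level to above the highest TAK242 library, while all fatty acid libraries were above the other 9. Ddit3 rose by 0.85 with LPS (SE 0.31, adjusted p = 0.0332) and by a further 0.94 with fatty acid (SE 0.31, adjusted p = 0.0353); against untreated the fatty acid libraries were higher by 1.797 (SE 0.31, adjusted p = 0.000461). The LPS call was lost without any 1 library but LPS replicate 1 (adjusted p up to 0.118), and the fatty acid call without LPS replicate 2 or any fatty acid replicate (up to 0.091), while the call against untreated held in each case (up to 0.00247). With TAK242 the change was -0.45 (SE 0.31, adjusted p = 0.413) although the libraries did not overlap.

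Atf6 encodes the sensor that acts at the ER stress element. Its values were 7.31, 7.79 and 7.98 untreated, 5.51, 5.96 and 5.72 with LPS, 8.75, 8.51 and 8.45 with fatty acid, and 6.13, 6.62 and 7.28 with TAK242. As deposited the 4 groups did not overlap: fatty acid was highest, then untreated, TAK242 and LPS. It was higher by 0.51 with fatty acid (SE 0.08, adjusted p = 0.0011) and lower with TAK242 by a change of -0.32 (SE 0.08, adjusted p = 0.0439), a call lost with no filter (adjusted p = 0.316) and with the replicate number as a block (adjusted p = 0.0613), and without any 1 of the 6 libraries except TAK242 replicate 3 (adjusted p up to 0.15). Its order among the 3 LPS-treated groups was thus the reverse of that of the chaperones. The fall with LPS of -0.37 (adjusted p = 0.00161) became -0.03 (adjusted p = 0.716) with scaling. The scaled untreated mean lay below that with TAK242, and the scaled untreated libraries overlapped those with TAK242 and those with LPS.

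Eif2ak3, the gene of the sensor PERK, read 5.52, 7.09 and 6.64 untreated, 3.23, 3.06 and 3.03 with LPS, 2.95, 3.08 and 2.97 with fatty acid, and 3.54, 3.89 and 3.22 with TAK242. All 9 LPS-treated libraries were below the 3 untreated ones. LPS lowered it on both scales, by a change of -0.85 (SE 0.09, adjusted p = 1.53e-05) or -0.53 with scaling (adjusted p = 0.000327), and fatty acid added -0.04 (95% interval -0.24 to 0.17). Ern1, the gene of IRE1, stayed between 2.71 and 4.10 in all 12 libraries and was called only with LPS after scaling (0.44, adjusted p = 0.00497).

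Atf3, a stress-induced repressor downstream of ATF4, read 26.4, 26.3 and 23.9 untreated, 17.7, 14.1 and 16.7 with LPS, 20.7, 16.9 and 15.7 with fatty acid, and 13.4, 14.7 and 17.2 with TAK242. Untreated libraries were the highest, and the other 3 groups overlapped. The LPS change of -0.63 (SE 0.13, adjusted p = 0.00119) was -0.26 (adjusted p = 0.075) with scaling. Atf4 itself, controlled largely in translation, read 29.1, 28.6 and 25.9 untreated, 23.7, 28.6 and 35 with LPS, 33.4, 27.7 and 25.5 with fatty acid, and 24.4, 26.8 and 29.3 with TAK242. The 4 groups overlapped, with a change of 0.04 with LPS (adjusted p = 0.805; 0.42 and 0.0138 with scaling) and -0.00 with fatty acid (adjusted p = 0.993). Xbp1 read 14.8, 13.4 and 16.1 untreated, 12, 17.5 and 13.8 with LPS, 36.5, 12.9 and 20.4 with fatty acid, and 16.5, 14.5 and 14.7 with TAK242. Fatty acid replicate 1 alone was high, and the fatty acid change of 0.55 (SE 0.28, adjusted p = 0.146) fell to 0.18 at its lowest when 1 library was left out. Against untreated cells it was 0.51 (adjusted p = 0.142), and 0.81 with scaling (adjusted p = 0.0283).

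ER-associated degradation removes misfolded proteins through the SEL1L-SYVN1 ubiquitin ligase, with HERPUD1 as a partner and EDEM1 as a mannosidase-like protein that delivers substrates. Edem1 had its lowest mean of these 4 groups with fatty acid and a higher mean with TAK242 (24.3) than with LPS alone (22.9). It read 25.8, 29.7 and 26.7 untreated, 25.1, 22.3 and 21.5 with LPS, 17, 17.4 and 14.8 with fatty acid, and 25, 25 and 22.9 with TAK242. The fatty acid libraries were below the other 9 without overlap. The changes were -0.46 with fatty acid (SE 0.09, adjusted p = 0.00367) and 0.54 with TAK242 (SE 0.09, adjusted p = 0.0135). The LPS change of -0.25 (adjusted p = 0.0375) turned to 0.13 (adjusted p = 0.242) with scaling, and its call was lost without untreated replicate 2 or 3 or LPS replicate 2 or 3.

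Sel1l read 37.2, 25.1 and 38.8 untreated, 16.6, 15.2 and 13.6 with LPS, 24, 17.9 and 14.5 with fatty acid, and 14.5, 15.9 and 14.8 with TAK242. Every untreated library was above every LPS-treated one, with an LPS change of -1.08 (SE 0.19, adjusted p = 0.000459) and -0.71 with scaling (adjusted p = 0.00798), and neither fatty acid (0.27, adjusted p = 0.281) nor TAK242 (-0.27, adjusted p = 0.408) gave a call. Herpud1 read 13.1, 12.9 and 9.35 untreated, 9.9, 6.14 and 7.04 with LPS, 9.61, 7.68 and 6.25 with fatty acid, and 9.35, 9.24 and 7.45 with TAK242. Untreated and LPS libraries overlapped, and its LPS change of -0.57 (adjusted p = 0.0241) was -0.21 (adjusted p = 0.368) with scaling; its call was lost without untreated replicate 1 or 2 or LPS replicate 2 or 3. Syvn1 lay between 6.60 and 13.0 and was called only with LPS after scaling (0.50, adjusted p = 0.0411).

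The 4 effectors act late in the response: TRIB3 is a pseudokinase that binds ATF4 and AKT, CHAC1 degrades glutathione, SESN2 restrains mTORC1, and PPP1R15A (GADD34) brings back translation by dephosphorylating eIF2. All 4 were low, with Chac1 at 0.0451 to 0.243 across the 12 libraries, Trib3 at 0.668 to 1.84, Ppp1r15a at 0.792 to 2.70 and Sesn2 at 2.29 to 4.62. As deposited, none of the 3 tested was called in the LPS, fatty acid or TAK242 contrast; Trib3 and Ppp1r15a were higher with LPS after scaling (0.56, adjusted p = 0.0138, and 0.61, adjusted p = 0.0193). LPS replicate 1 stood apart from its group here. It had the lowest Trib3 (0.758, against 1.55 and 1.84) and the highest Ppp1r15a (2.70, against 1.09 and 1.33) of the LPS libraries, beside the lowest Ddit3 (9.81) and Asns (10.8, against 16.6 and 22.8).

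Among amino acid and one-carbon genes, LPS lowered Psat1, Phgdh and Shmt2, though Phgdh not with scaling. Psat1, the aminotransferase of serine synthesis, read 16.5, 15.7 and 14.2 untreated, 2.44, 3.32 and 2.9 with LPS, 2.49, 1.95 and 1.81 with fatty acid, and 2.4, 3.42 and 2.19 with TAK242. Untreated libraries were far above the other 9. The LPS change was -2.08 (SE 0.14, adjusted p = 3.16e-07), the largest of the 34 genes tested in absolute value, and -1.75 with scaling (adjusted p = 9.23e-07). Fatty acid before LPS gave a further -0.34 (SE 0.14, adjusted p = 0.0805), and -0.39 with scaling (adjusted p = 0.0342).

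Phgdh, the enzyme that opens serine synthesis, read 4.85, 5.65 and 4.78 untreated, 1.94, 3.66 and 2.96 with LPS, 1.13, 1.1 and 0.868 with fatty acid, and 2.38, 3.51 and 1.81 with TAK242. Shmt2, the mitochondrial enzyme that turns serine into glycine and a one-carbon unit, read 12, 15.4 and 14.1 untreated, 5.74, 5.77 and 6.18 with LPS, 3.83, 3.35 and 2.84 with fatty acid, and 4.81, 6.18 and 5.21 with TAK242. In both genes the untreated libraries were the highest and the fatty acid libraries the lowest, with no overlap with any other group. Phgdh changed by -0.68 with LPS (SE 0.19, adjusted p = 0.00853; -0.37 and 0.0995 with scaling), by -0.90 with fatty acid (SE 0.19, adjusted p = 0.00457) and by 0.79 with TAK242 (SE 0.19, adjusted p = 0.0431). Shmt2 changed by -1.10 (SE 0.12, adjusted p = 1.3e-05), -0.67 (SE 0.12, adjusted p = 0.00213) and 0.56 (SE 0.12, adjusted p = 0.0293) in the same contrasts.

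Slc3a2, the heavy chain of amino acid exchangers, went the other way with LPS: 63.1, 99.4 and 86 untreated, 312, 161 and 193 with LPS, 182, 121 and 144 with fatty acid, and 164, 168 and 159 with TAK242. LPS replicate 1 was the highest library, and all LPS-treated libraries were above the untreated ones. It rose by 1.38 with LPS (SE 0.24, adjusted p = 0.000496), and fatty acid gave -0.53 (SE 0.24, adjusted p = 0.106). The ATF4 target Asns, asparagine synthetase, lay between 10.8 and 22.8 in the 12 libraries and had no call. Mthfd2, a mitochondrial folate enzyme, lay between 20.8 and 34.8. It was higher with fatty acid then LPS than untreated (0.38, adjusted p = 0.0421, lost without any 1 of 5 of the 6 libraries) and with LPS after scaling (0.65, adjusted p = 0.00189).

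Genes beyond the 35 that serve the same processes were counted on lists chosen with earlier results of these data known. Of 16 translocation genes, which bring proteins into the ER, 7 were lower and none higher with fatty acid before LPS, among them Sec61b, a channel subunit, from a mean of 93.8 to 33.4 (-1.49, adjusted p = 0.000286), and Ssr1 and Sec61g (-0.52 and -0.53). Of 10 disulfide genes 5 were lower and none higher, including P4hb (276 to 166, -0.73, adjusted p = 0.000727) and the oxidase gene Ero1l (26.5 to 14.6, -0.79, adjusted p = 0.00251). Medians were -0.34 in both lists, against 0.06 for all genes. Of 15 further degradation genes tested, 3 were lower (Edem2, Selenos, Vcp) and 1 higher, 26.7% against 37.2% of all genes; with scaling 7 were lower and none higher, where 39.8% of all genes were called. With TAK242 1, 3 and 2 genes of these lists were higher and none lower, 6.25%, 30% and 13.3% of those tested against 4.69% of all genes, including P4hb (0.55, adjusted p = 0.0178), Sec61b (0.68, adjusted p = 0.0412) and Os9 (0.31, adjusted p = 0.0431). None of these TAK242 calls held under every left-out library (adjusted p up to 0.0793 for P4hb, 0.163 for Sec61b and 0.157 for Os9).

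The further genes of the integrated stress response were mixed. Of 15 tested of 24, 3 were higher and 5 lower with fatty acid before LPS, beside 21.8% and 15.3% of all genes. Eif2ak2 (PKR, another eIF2 kinase, itself interferon-induced) went from 8.56 untreated to 19.3 with LPS and 36.8 with fatty acid (0.90, adjusted p = 9.28e-05), and the cystine transporter gene Slc7a11 from 0.606 to 24.8 and then 0.930 (-3.01, adjusted p = 0.00547). Eif4ebp1, a brake on translation, went from 11.2 with LPS to 6.90 with fatty acid (-0.64, adjusted p = 0.00381). Of 20 aminoacyl-tRNA synthetase genes, which ATF4 also raises, 11 were lower and none higher with LPS as deposited, 55% called where 61.7% of all genes were, and with scaling 9 were higher and 1 lower, where 54.1% were. Yars, lower on both scales, went from 29.6 to 7.78 (-1.83 as deposited and -1.46 with scaling). Fatty acid gave 3 lower and 1 higher among the 20 (20%, against 37.2% of all genes), and 6 lower and 1 higher with scaling (39.8% of all genes).

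Markers of other cells were read beside these results. In bulk RNA, fewer cells of a type and less RNA per cell cannot be told apart. Of 8 stromal markers 5 were tested, and their summed level was 7.80 to 15.7 untreated, 24.7 to 53.7 with LPS, 9.28 to 12.6 with fatty acid and 20.2 to 24.5 with TAK242, which is the order of groups seen in Hyou1 and Creld2. With LPS 5 of the 8 were higher, with fatty acid 4 lower, and with TAK242 2 higher; Sparc averaged 5.52, 14.8 and 5.10 in the first 3 groups, while Lum was listed at 0 in all but 1 library and Thy1 reached at most 0.0287. Their part in the chaperone result was not tested. Summed neutrophil markers were 24.8 to 33.1, 87.9 to 378, 59.4 to 67.2 and 49.5 to 69.1 in the same groups, and their part was not tested either. With LPS 2 of the 4 neutrophil markers tested were higher and none lower. The highest sums of both lists came from LPS replicate 1. Its stromal sum was 53.7, against 29.9 and 24.7 in LPS replicates 2 and 3, and its neutrophil sum 378, against 128 and 87.9. In that library 2 of the 8 neutrophil markers reached a value of 1, against 4 in LPS replicates 2 and 3. Each untreated library had 3 at that value. Neutrophil markers above 0 numbered 4, 5 and 6 in LPS replicates 1, 2 and 3 and 7, 8 and 8 untreated. Among B and plasma cell markers, whose sum was highest with LPS (9.37 to 14.5), the plasma cell gene Mzb1 was listed at 0 in all 12 libraries and Cd79a reached at most 0.0737. Of the 3 B and plasma cell markers tested, 1 was higher and 2 were lower with LPS, so the sum does not stand for the list. T cell and dendritic markers summed to at most 0.117 and 0.530 in that table.

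Of the 35 genes, 32 were tested in the Western diet table. None was called (limma) for the Western diet label without LPS against chow, where 0.232% of all genes were (0.0678% higher, 0.165% lower). None was called for LPS against no LPS within that label either, where 0.958% were (0.678% higher, 0.281% lower). With scaling the members' counts were again 0 and 0, beside 0.223% (0.0871% higher, 0.136% lower) and 1.99% (1.46% higher, 0.532% lower) of all genes. At an unadjusted p under 0.05 there were 7 and 5 members of 32, beside 27.3% and 17.2% of all genes. The libraries within each label were far apart, which the SDs show: Ddit3 was 36.9 ± 24.6 (SD, n = 3) without LPS and 16.0 ± 10.6 with LPS, against 8.35 ± 1.55 in chow.

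Western diet replicates 1 and 3 labelled without LPS, which carry the high Ccl5, were low in chaperones: 13 and 12 of the 14 were below all 3 chow libraries and none above, while replicate 2 had 1 below and 6 above. Of all genes tested 67.1% and 64.8% were below chow and 21.1% and 22.9% above in replicates 1 and 3, against 28.5% below and 32.5% above in replicate 2. After scaling, with size factors of 0.740 and 0.741 against 1.12 to 1.17 in chow, the chaperone counts of replicates 1 and 3 were 5 and 9 below with 5 and 3 above, beside 42.3% and 43.1% of all genes below and 42.6% and 43.6% above. Replicate 2 then had 1 below and 3 above, beside 31.6% and 28.5% of all genes. The counts thus depend on the scale. In replicates 1 and 3 summed macrophage markers were 7499 and 5793 (chow 10176 to 11993), stromal 7.85 and 7.84 (chow 0.216 to 1.16), neutrophil 51.2 and 67.3 (chow 20.1 to 32.3), dendritic 2.08 and 2.72 (chow 0.103 to 0.156), and B and plasma cell 2.80 and 2.77 (chow 9.59 to 12.7). Of 8 stromal markers 3 reached a value of 1 in each of these libraries, 2 in replicate 2 and none in chow. Some of these differences from chow were shared by other Western diet libraries. In replicate 2 the sums were macrophage 15382, stromal 4.09, neutrophil 15.2, dendritic 0.0693, and B and plasma cell 5.34. Under the LPS label they were 9436 to 11619, 2.02 to 3.34, 55.4 to 55.9, 0.0809 to 0.673, and 5.59 to 6.30. The part of these markers in the result was not tested. Sdf2l1 read 4.66, 26.4 and 4.51 in replicates 1, 2 and 3, against 30.6, 41.2 and 35.1 in chow and 31.5, 25.6 and 16.2 in the libraries labelled Western diet with LPS. Hspa5 read 163, 317 and 127, against 183, 216 and 223 in chow and 163, 187 and 178 under the LPS label. Hyou1 read 20.9, 50 and 14.5, against 31.1, 55.4 and 36.4 and against 39.8, 35.5 and 36.2. In Sdf2l1 and Hyou1 replicates 1 and 3 were the lowest of the 9 libraries; in Hspa5 replicate 3 was, and replicate 1 was level with an LPS-labelled library. Replicate 2 was above chow in Hspa5, within it in Hyou1 and below it in Sdf2l1.

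As deposited, the sensors and factors were mixed in the same libraries. Of the 7, 3 were above and 3 below all chow libraries in replicate 1, and 3 above and 4 below in replicate 3. Of all genes 21.1% and 22.9% were above and 67.1% and 64.8% below. With scaling 5 of the 7 were above and 1 below in both replicates. Of all genes 42.6% and 43.6% were then above, and 42.3% and 43.1% below. The 3 above as deposited were Ddit3, Atf3 and Atf4. Ddit3 read 47.3, 8.78 and 54.7 in the libraries labelled without LPS, against 6.75, 9.86 and 8.43 in chow and 8.85, 11.1 and 28.2 under the LPS label. Atf3 read 53.6, 6.76 and 58.5, against 7.87, 8.26 and 7.71 and against 22, 21.2 and 13.5. Replicates 1 and 3 were thus the highest of the 9 in both, and for Atf3 they were above all libraries of the fatty acid table in listed value, although the tables may have been normalized separately. Eif2ak3 read 1.36, 6.43 and 1.29, against 6.28, 6.81 and 6.55 and against 5.54, 6.1 and 3.07. Trib3 and Ppp1r15a, under the filter here, were 2.25 and 3.18, and 2.01 and 2.51, in replicates 1 and 3 and at most 0.738 and 0.589 in the other 7 libraries.

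Serine genes divided the libraries most. Phgdh read 0.492, 3.26 and 0.354 without LPS by label, 26.5, 22.7 and 2.31 with LPS by label, and 8.24, 9.1 and 7.94 in chow. Psat1 read 2.31, 16.5 and 1.7, then 40.8, 33.2 and 3.96, against 19, 20.7 and 19.6. Shmt2 read 2.24, 28.2 and 2.17, then 18.4, 17.3 and 6.45, against 26.9, 45.4 and 35. The 3 Western diet libraries with high Ccl5, whichever their label, were the 3 lowest of the 9 in all 3 genes. Replicates 1 and 2 labelled with LPS, whose Ccl5 was low, were the highest of all in Phgdh and Psat1 but not in Shmt2.

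Leaving out a library changed these counts. Without replicate 2 of the Western diet label without LPS, 3 members were higher (Atf3, Ddit3, Slc3a2) and 15 lower than chow, Sdf2l1 by a change of -2.70 (adjusted p = 0.00102) and Atf3 by 2.67 (adjusted p = 0.000561). Of all genes 12.1% were then higher and 44.4% lower, so that the members' share is near that of all genes. For LPS against no LPS 14 were higher and 3 lower under the same setting, beside 29.8% and 9.72% of all genes. Without LPS-labelled replicate 3, that contrast gave Edem1 and Phgdh higher and Slc3a2 lower, beside 5.04% and 2.19% of all genes. Without the 4 libraries whose Ccl5 goes against the label, 1 library was left in each Western diet group and assumed to vary like the others; LPS against no LPS then gave 2 higher (Atf3 and Ddit3) and 8 lower (Hspa5, Pdia4, Eif2ak3, Herpud1, Sel1l, Asns, Psat1, Shmt2), beside 8.35% and 23.6% of all genes, and 9 of these 10 had the opposite sign to the fit on all libraries, the exception being Hspa5. No direction for diet or for LPS in Western diet cells is therefore given.

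**Figure D4:**
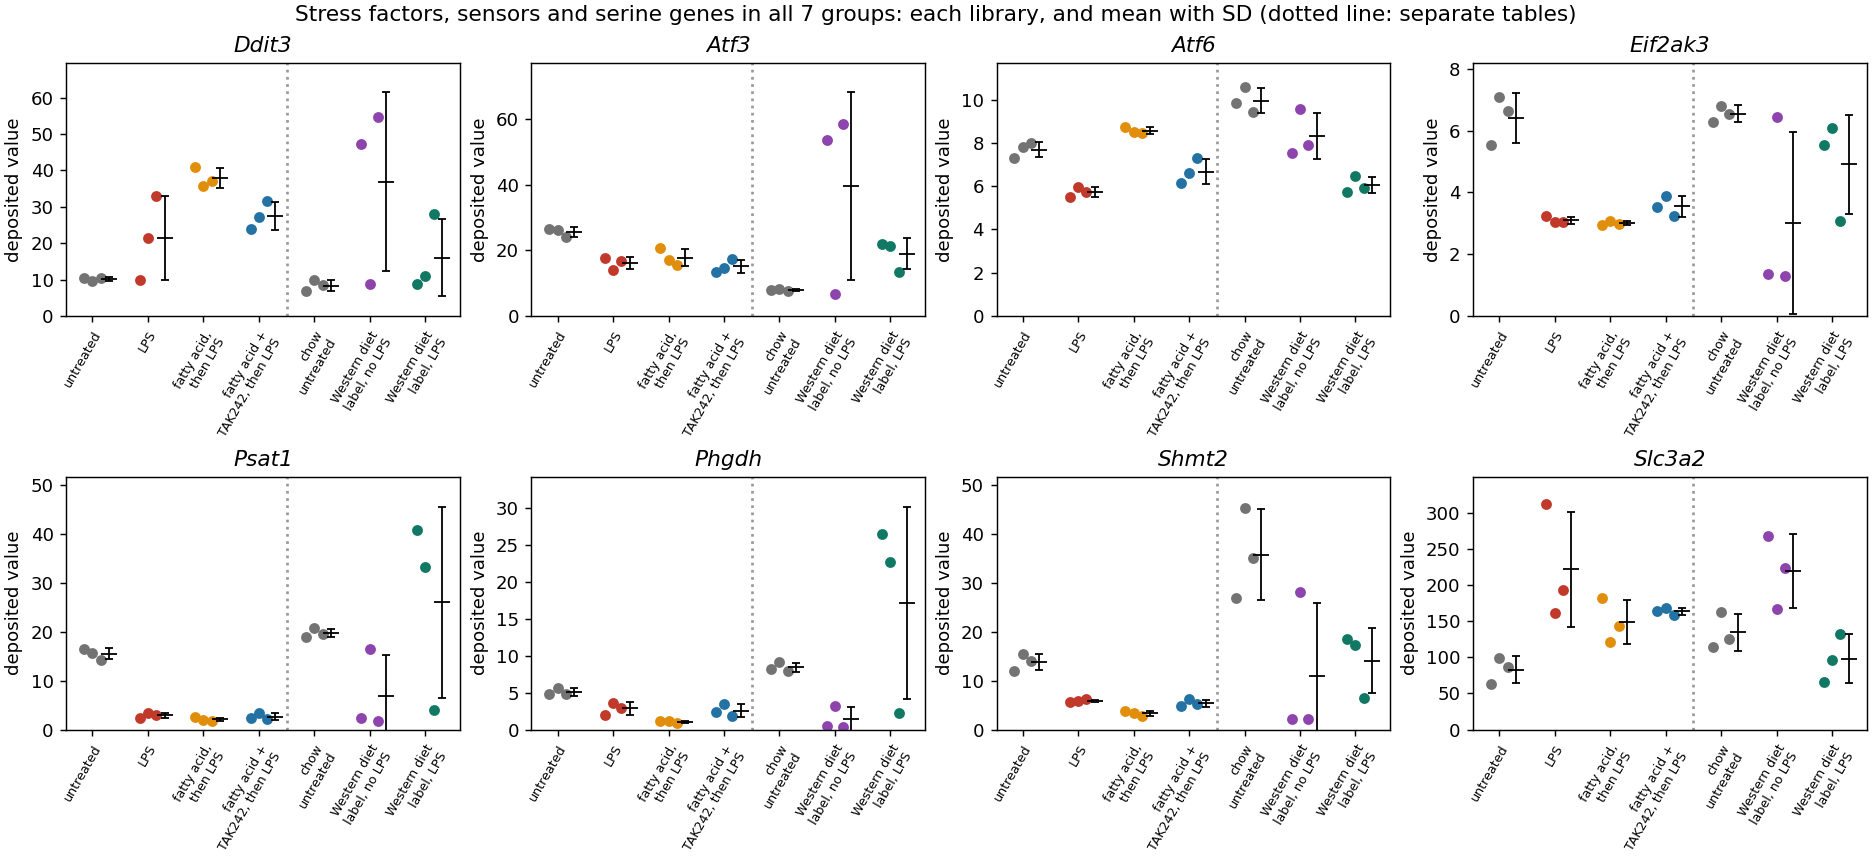
Deposited values (vertical axes, linear from 0) of 8 genes in all 7 groups, with 1 dot a library and mean ± SD (n = 3; bars are cut at 0); the dotted line parts the fatty acid table (left) from the Western diet table (right), which may have been normalized separately. Within the Western diet labels the libraries fall far apart, as in Ddit3 (47.3, 8.78 and 54.7 without LPS); the fatty acid libraries of the left side read 41, 35.7 and 37.1 in that gene.

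Reads of overlapping genes are a limit on some of these values, since the sources used here do not say whether counting used strand. In GENCODE M21 11 of the 35 genes overlap another gene's exons: by 632 of 4032 exonic bases in Hsp90b1, 485 of 6026 in Eif2ak3, 326 of 3524 in Manf and 186 of 1713 in Ddit3 (chromosome 10, 127290774 to 127296288, plus strand), whose neighbours include the antisense gene Mars and a second annotated copy of the Ddit3 symbol.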

How the data were processed

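RNA-seq values of 21 macrophage libraries were used as deposited. HISAT2 2.0.5 and Trim Galore 0.4.1 are named in the submitters' processing notes, beside FastQC 0.11.5 and CASAVA 1.8.2, as are mm10 and mm9 without roles. The unit and counting step are not given in the sources used here, so each deposited value is treated as a score that behaves like FPKM: low values of genes with 1 exon pile up more often at a shared step when multiplied by length. Coordinates equal GENCODE M21 (GRCm38) in 46773 of 50645 and 46772 of 50644 genes. Entries with displaced fields (36 and 35) were left out.

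Genes that reached 1 in 3 or more libraries of a table (10476 and 10331) were fitted as log2(value + 1) with limma 3.58.1 (mean-variance trend, R 4.3.3), all libraries of a table sharing 1 spread, Benjamini-Hochberg over genes tested, threshold 0.05, two-sided. The fit was tested on simulated data. Alternatives were no filter, a minimum of 5, a pseudocount of 0.1, only the 6 libraries compared, median-ratio scaling, each library left out, a replicate block and, in the Western diet table, leaving out 4 libraries (for LPS against no LPS chosen after seeing the data). The members and lists were chosen with earlier results of these data known. Values in every library are given for up to 4 members a role with the largest called change, and for Hspa5, Xbp1, Atf4 and Ddit3; from each wider list up to 3 genes by smallest adjusted p with a group mean of at least 10. Chaperone protein ends, also planned, were not analysed here. Python 3.11.15, pandas 2.3.3 and matplotlib 3.10.9 handled tables and plots.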

Additional observations from a re-analysis of the deposited data

Results flagged for a closer look

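Slc3a2, the heavy chain of amino acid exchangers, had libraries apart in opposite directions between LPS and no LPS in the 2 tables, by label. In chow cells its log2 change was 1.38, with all LPS libraries (161 to 312) above all untreated ones (63.1 to 99.4). In libraries labelled Western diet it was -1.19, with all libraries labelled LPS (65.7 to 133) below all labelled without (167 to 268), which did not pass the test (limma, adjusted p = 0.121). The difference between the changes was not tested, and 4 of the 6 Western diet libraries go against their label in Ccl5.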

How the results depend on the processing

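Median-ratio scaling changed the LPS counts from 7 higher and 10 lower to 18 and 4, and those of fatty acid then LPS against untreated from 3 and 17 to 7 and 10. Among members with a call on either scale, it turned the sign of the LPS change in Canx (0.059), Pdia4 (0.36) and Edem1 (0.13). In fatty acid then LPS against untreated it did so in Pdia3 (0.050). Some members with no call on either scale also changed direction, such as Sdf2l1 with LPS. Its means went from 21.7 untreated to 17.9 with LPS as deposited, and from 18.1 to 19.6 with scaling. For fatty acid before LPS, members higher numbered 1 with no filter and 1 with only the 6 libraries (main value 2), and 1 to 2 when a library was left out; members lower stayed within 15 to 18 under every setting. For TAK242, no filter gave 3 higher and 0 lower, the replicate block 9 and 0, and left-out libraries 0 to 8 higher and 0 to 1 lower. All genes called for TAK242 numbered 491 in the main fit, 213 with no filter, 770 with scaling, 1110 with only the 6 libraries and 63 to 305 with a library left out; for LPS they numbered 6463, and 4303 with a minimum of 5, which tests fewer genes.

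In the Western diet table, left-out libraries gave 0 to 3 members higher and 0 to 15 lower against chow, and 0 to 14 higher and 0 to 3 lower for LPS against no LPS. Without the 4 libraries against their label the latter gave 2 and 8, and these changed sign: Pdia4 (-0.63), Eif2ak3 (-0.87), Atf3 (0.90), Ddit3 (1.58), Herpud1 (-1.66), Sel1l (-1.68), Asns (-1.12), Psat1 (-1.82) and Shmt2 (-1.97). All genes called against chow numbered 24, and 69 with no filter, 12 with a minimum of 5 and 8 to 5838 with a library left out. For LPS against no LPS they numbered 99, and 58 with a minimum of 5, 2 with only the 6 libraries, 206 with scaling, 0 with the replicate block, 18 to 4086 with a library left out and 3301 without the 4 libraries. The cause of these shifts was not tested.

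Replicate numbers showed no sign of pairing in the fatty acid table, where deviations of same-numbered libraries correlated at -0.08 to 0.06. In the Western diet table these correlations were -0.67, 0.68 and 0.76, and those of differently numbered libraries ran from -0.79 to 0.74. Pairing cannot be judged in the Western diet table, since libraries under 1 label lie far apart and their deviations carry that spread. With the replicate block the LPS members were 8 higher and 10 lower, those for fatty acid 2 and 17, and those against untreated 2 and 17, and 0 and 0 for LPS in the Western diet label. No paired analysis was possible against chow in that table because its libraries carry numbers 4 to 6. Low values limit Chac1, Trib3 and Ppp1r15a, and depth is unknown.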
